A study of Homo sapiens with 12 samples.

Results

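The expression of 39 proliferation genes, 19 that act in S phase and 20 that act in G2 and mitosis, was followed in HOS, a human osteosarcoma cell line, with the adaptor protein CIN85 raised or lowered. The members are a fixed list of gene symbols, and each of the 39 symbols matched 1 of the 25141 rows of the count table through its Ensembl identifier. The study ran 12 RNA-seq libraries, 3 in each of 4 groups. For upCIN85, cells were transfected with pRc/CMV2-Rukl, a plasmid in which a CMV promoter drives full-length CIN85, and kept as a pool under geneticin, and Mock stands for the same line given the empty vector. In siCIN85 a set of siRNAs directed at CIN85 was used together, in siNeg a non-targeting one, and the sources used here do not say whether the siRNA cultures had passed through vector transfection or selection, nor how dense the cultures were at harvest. The study also measured the proliferation of these cells with a metabolic dye, and the question here is how the transcripts of the replication and division machinery compared between the same groups.

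The transcripts of these genes rise and fall with the cell cycle. Members of the E2F family, held in check by RB until late G1, drive the genes for replication licensing, the MCM helicase, the sliding clamp PCNA and the enzymes that supply deoxynucleotides. The genes for mitotic cyclins, kinases, kinesins and the ubiquitin ligase APC/C follow later, and their promoters are known for a CHR element and CCAAT boxes, which are bound by the DREAM and MuvB-B-MYB-FOXM1 complexes and by NF-Y. In a culture that is not synchronised, the summed level of such transcripts depends both on how many cells are in each phase and on how much RNA each of those cells holds, and bulk libraries cannot tell fewer cells in a phase from less RNA per cell.

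Letters of an E2F core were frequent in the S-phase promoters and letters of a CHR in the G2/M promoters. A promoter window from RefSeq (build GRCh38.p14, 250 bases before and 50 bases after the annotated start) matched 32 of the 39 members, and MCM4, MCM5, CCNE2, AURKA, TPX2, UBE2C and BIRC5 had no entry. Both strands were searched. A CHR was read as TTTGAA, or else as the palindrome TTTAAA, and a CCAAT box as CCAAT. An E2F core was TTGGCGC, or a run reading TTCCCGC, or one reading TTCGCGC, and such matches can overlap each other. An E2F core stood in 13 of 16 S-phase promoters (81.2%) and in 2 of 16 G2/M promoters (12.5%), against 11.2% of the windows of 27305 genes. A CHR stood in 3 of 16 S-phase promoters (18.8%) and in 13 of 16 G2/M promoters (81.2%), against 24.3% of all windows. The CCAAT box was common to both sets, in 10 of 16 and 14 of 16 promoters against 35.7% of all windows, and a CHR together with a CCAAT box was found in 2 of 16 S-phase and 11 of 16 G2/M promoters against 9.49% of all windows. Each match is a run of letters and not a measured binding site.

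Shown here are the 250 bases up to the start of CCNA2 (chr4:121823884-121824133, minus strand), CCNB1 (chr5:69166900-69167149, plus strand) and MCM6 (chr2:135876444-135876693, minus strand), all on GRCh38.p14. These are the members called further on in upCIN85 versus Mock without a replicate block or in siCIN85 versus siNeg with one. The bases run 5′ to 3′ along the gene, with letters of a CHR, CCAAT box or E2F core in capitals.
CCNA2: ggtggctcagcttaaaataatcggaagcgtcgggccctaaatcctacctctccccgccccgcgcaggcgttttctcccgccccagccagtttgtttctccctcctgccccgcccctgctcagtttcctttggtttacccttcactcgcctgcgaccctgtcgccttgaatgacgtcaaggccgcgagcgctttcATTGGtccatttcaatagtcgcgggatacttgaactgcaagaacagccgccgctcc
CCNB1: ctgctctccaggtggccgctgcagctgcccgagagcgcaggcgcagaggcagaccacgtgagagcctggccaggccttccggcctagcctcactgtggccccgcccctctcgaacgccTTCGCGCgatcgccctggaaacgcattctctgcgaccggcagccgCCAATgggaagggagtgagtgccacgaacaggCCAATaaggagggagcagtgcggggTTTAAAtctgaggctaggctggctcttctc
MCM6: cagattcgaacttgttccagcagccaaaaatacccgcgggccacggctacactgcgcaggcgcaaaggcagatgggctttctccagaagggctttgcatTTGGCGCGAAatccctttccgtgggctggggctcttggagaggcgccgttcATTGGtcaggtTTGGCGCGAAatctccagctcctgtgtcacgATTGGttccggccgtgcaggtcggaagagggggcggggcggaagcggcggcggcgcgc
The CCNA2 window held 1 CCAAT box, read on the reverse strand as ATTGG, and neither a CHR nor an E2F core of the letters searched. Runs that differ from those letters, such as the cttgaa in this window, were not searched, so a CHR of other letters would be missed. The CCNB1 window held 2 CCAAT boxes, 1 E2F core and 1 CHR, which lay from 30 to 25 bases before the start. The MCM6 window held 2 CCAAT boxes and 4 E2F core matches, which lie in 2 overlapping pairs.

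**Figure D1:**
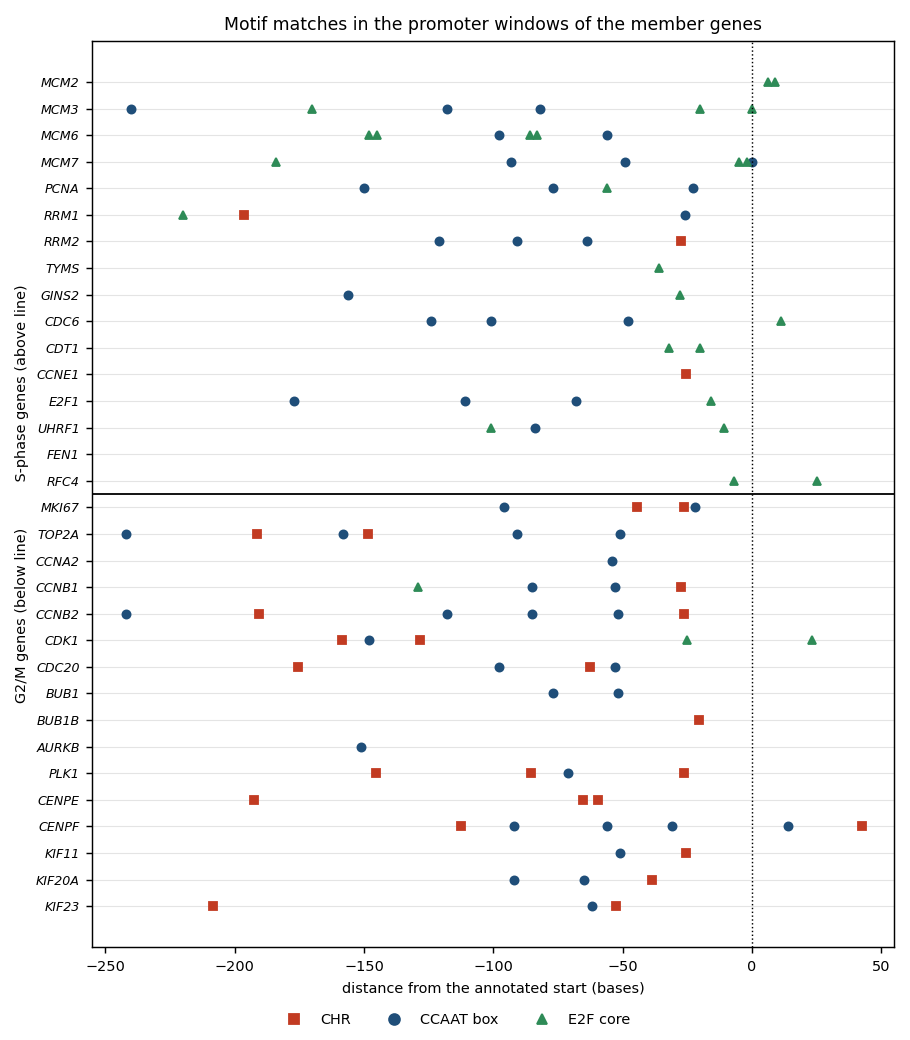
Matches of the CHR (squares), the CCAAT box (circles) and the E2F core (triangles) in the promoter windows of 32 members, plotted by their distance in bases from the annotated start (dotted line), with S-phase genes above the horizontal line and G2/M genes below it. E2F cores lie mainly in S-phase promoters and CHR matches mainly in G2/M promoters.

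The libraries were counts of reads from the 3′ ends of transcripts, and their totals ran from 5334731 to 5774968 in Mock, 5726535 to 6049458 in upCIN85, 4011368 to 4174860 in siNeg and 3540641 to 3991517 in siCIN85. Levels are given as CPM, counts scaled to their library's total after correction by a TMM factor, and since a 3′ count is 1 read position per transcript it is compared between groups and not between genes. The members had 39 to 7065 counts in a library, so that all 39 entered the test. SH3KBP1, which encodes CIN85, was at 76.6, 82.8 and 73.0 CPM in Mock and at 71.0, 90.0 and 82.8 CPM in upCIN85 (log2FC 0.07, SE 0.16, adjusted P = 0.887), and whether the plasmid carries the 3′ end that this kit reads is not stated. In siCIN85 it was at 3.88, 8.96 and 9.77 CPM against 82.6 to 87.2 in siNeg (log2FC -3.51, SE 0.21, adjusted P = 5.09e-08). Of the mesenchymal markers COL1A1, SPARC, VIM and CDH2 were at 115 CPM or more in every library, ALPL was at 3.76 or less, SP7 and BGLAP had no row, and the blood markers PTPRC and CD3E and the endothelial marker VWF never exceeded 1 count. The blood marker CD14 reached 9 counts (2.02 CPM). The endothelial markers PECAM1 and CDH5 reached 6 and 36 counts (1.06 and 6.12 CPM). The epithelial markers EPCAM (24.6 to 61.2 CPM) and CDH1 (12.8 to 34.2 CPM) were present at a low level. Their sum was 50.6 to 56.1 CPM in Mock and 69.8 to 82.6 CPM in upCIN85. Neither gene passed there in edgeR (adjusted P = 0.214 for EPCAM and 0.137 for CDH1). The sum of the 7 mesenchymal markers was 1921 to 2326 CPM in siNeg and 1362 to 1834 CPM in siCIN85. Of these 7, edgeR called 0 in siCIN85 versus siNeg. In upCIN85 versus Mock it called 2 higher, beside 0.439% of all genes tested. Both sums thus lay apart in a comparison made here, and the part of these markers in the results was not tested.

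Summed over the 20 G2/M genes, the upCIN85 libraries lay below the Mock libraries, and summed over the 19 S-phase genes the siCIN85 group had the lowest mean. The G2/M sum was 5417, 5465 and 5418 CPM in Mock and 5046, 5241 and 4574 CPM in upCIN85 (means 5433 ± 27.5 and 4954 ± 343, SD, n = 3 each). The groups did not overlap, the means differed by -8.82%, and upCIN85 replicate 3 was the lowest of the 12 libraries. In siNeg the same sum was 6119, 5363 and 5424 CPM and in siCIN85 it was 5332, 5426 and 5352 CPM, a difference of -4.71%. Replicate 1 of siNeg was the highest of all libraries, and the other 5 libraries of these groups lay between 5332 and 5426 CPM. The S-phase sum was 3749, 3523 and 3477 CPM in Mock and 3745, 3397 and 3270 CPM in upCIN85, and these groups overlapped, with a difference of -3.13%. In siNeg it was 3424, 3184 and 3343 CPM and in siCIN85 it was 2891, 3186 and 2921 CPM, a difference of -9.58%. Replicate 2 of siCIN85 lay just above replicate 2 of siNeg, and the other siCIN85 libraries lay below every siNeg library. No test was made on these sums, because the genes of a sum are not replicates of a condition.

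**Figure D2:**
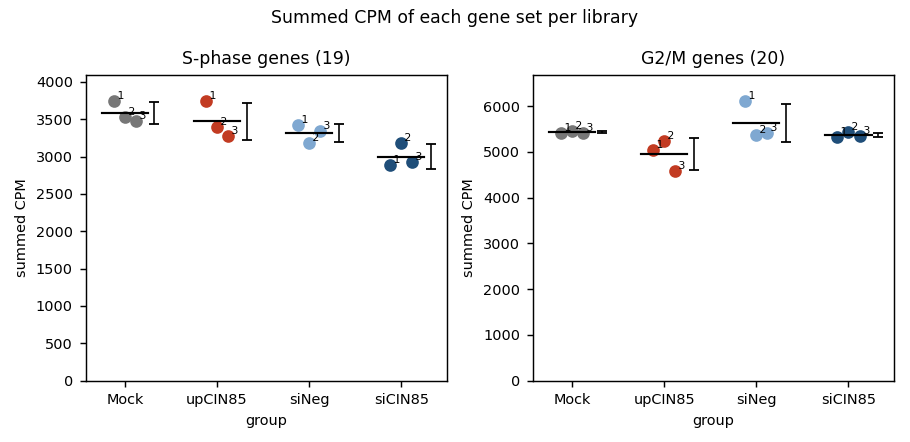
Summed CPM of the 19 S-phase genes (left) and the 20 G2/M genes (right) in each library, with the replicate number beside each point, the group mean as a line and the SD (n = 3) as a bar. The G2/M sums of upCIN85 (4574 to 5241 CPM) lie below those of Mock (5417 to 5465 CPM), and the S-phase sums of siCIN85 (2891 to 3186 CPM) reach lower than those of the other groups.

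**Figure D3:**
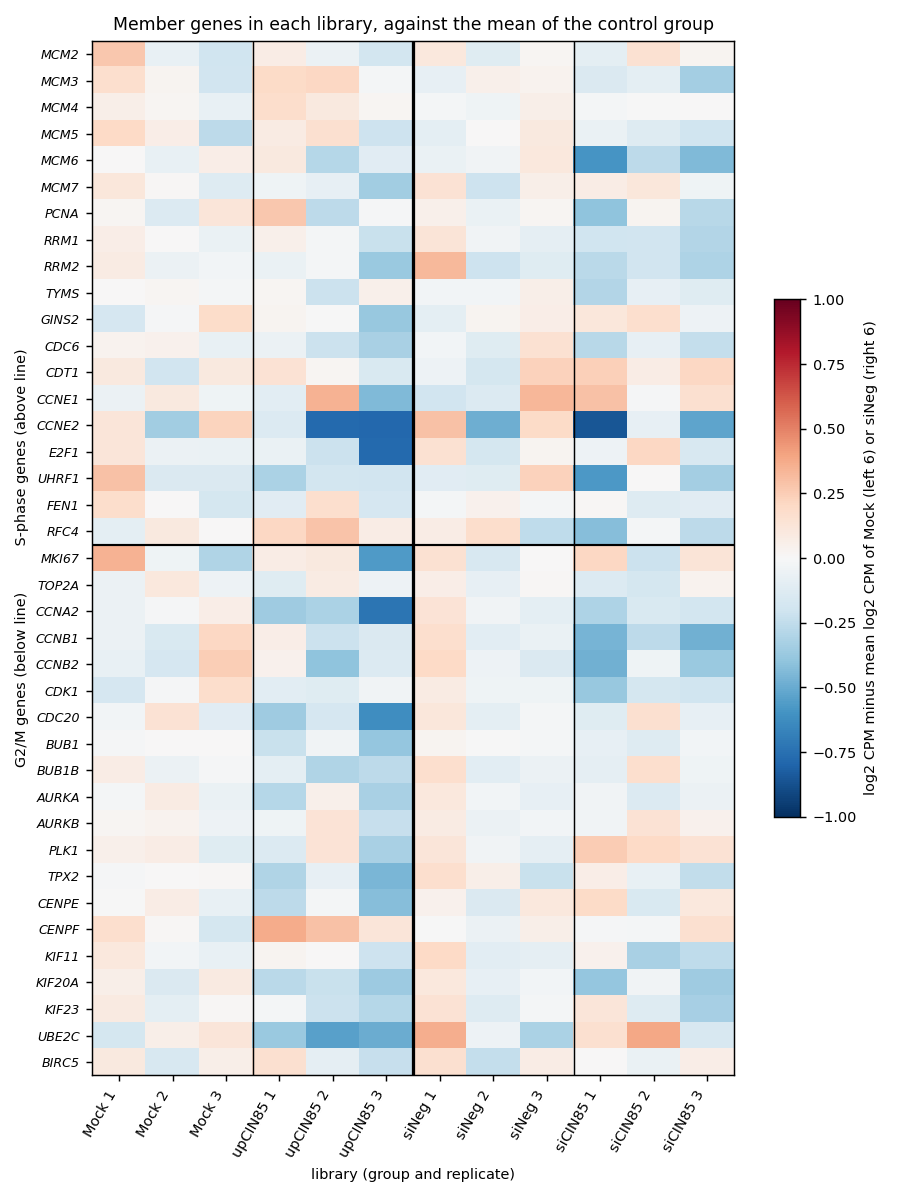
Each member in each library as the difference of its log2 CPM from the mean of its control group (Mock for the left 6 libraries, siNeg for the right 6), with S-phase genes above the line and G2/M genes below it. Blue is lower and red is higher; most G2/M rows are blue in upCIN85, most of all in replicate 3, while the deepest blue of the siCIN85 columns is in CCNE2, MCM6, CCNB1 and UHRF1.

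In upCIN85 cells the transcript of CCNA2, which encodes cyclin A2, the partner of CDK2 and CDK1 in S phase and G2, fell by 27.2% against Mock. It was the only member with an adjusted P below 0.05 in edgeR's quasi-likelihood test without a replicate block, and no member was called higher there. DESeq2 also called CCNA2 alone (adjusted P = 0.0104). Among all 12542 genes tested 0.789% were called lower and 0.439% higher in this comparison. Of the G2/M genes, CCNA2 included, 19 of 20 had a negative log2FC, with a median of -0.17, while 48.9% of all genes tested were negative and their median was 0.01. At an unadjusted P below 0.05 there were 6 lower and 1 higher of the 20 G2/M genes, and 1 lower of the 19 S-phase genes, beside 984 lower and 833 higher of the 12542 genes tested. In 9 of the 39 members every upCIN85 library lay below every Mock library, 7 of them G2/M genes, and in none did every library lie above, against 11.0% of all genes tested that separated downward and 9.74% that separated upward.

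CCNA2 (chr4:121816444-121823933, minus strand, GRCh38) was at 352, 363 and 382 CPM in Mock and at 286, 293 and 220 CPM in upCIN85. The groups did not overlap, and replicate 3 of upCIN85 was the lowest of all libraries (log2FC -0.46, 95% interval -0.69 to -0.23, SE 0.11, adjusted P = 0.0499). The adjusted P lay just under the threshold, and leaving out a library moved the log2FC between -0.53 and -0.34 and the adjusted P between 0.0291 and 0.227, the last without upCIN85 replicate 3. Only without upCIN85 replicate 2 did the call hold, and it was lost without each of the 3 Mock libraries or upCIN85 replicate 1 (adjusted P of 0.0697 to 0.168). Over all genes tested the calls rose from 154 to 260 without upCIN85 replicate 2. They fell to between 25 and 89 without each of the other libraries compared. The 3′ end of CCNA2 overlaps that of EXOSC9, a gene on the opposite strand that encodes an exosome subunit, by 578 bases, and the strand setting of the counting is not stated. EXOSC9 itself was at 97.3, 72.3 and 92.6 CPM in Mock and at 75.7, 71.9 and 58.6 CPM in upCIN85 (log2FC -0.34, SE 0.15, adjusted P = 0.277), and its part in the CCNA2 value was not tested. The other members of the mitotic cyclin group, CCNB1 (-0.10), CCNB2 (-0.16) and the kinase CDK1 (-0.09), had negative log2FC values that did not pass the test.

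The 4 genes for exit from mitosis and its checkpoint had a median log2FC of -0.30 and did not pass in the fit without a replicate block. UBE2C, the E2 enzyme that works with APC/C, was at 270, 318 and 332 CPM in Mock and at 236, 210 and 217 CPM in upCIN85. The groups did not overlap, and the log2FC of -0.47 (95% interval -0.80 to -0.15, SE 0.15) had an adjusted P of 0.137. UBE2C was the lowest G2/M value of this comparison. The APC/C activator CDC20 (log2FC -0.38, adjusted P = 0.171) and the checkpoint kinases BUB1B (-0.22) and BUB1 (-0.21) also separated without overlap and did not pass in that fit. Among spindle and kinetochore genes KIF20A (-0.29), a kinesin of the cleavage furrow, and TPX2 (-0.27), an activator of Aurora A, separated downward as well, and KIF23 (-0.17), CENPE (-0.22) and KIF11 (-0.06) overlapped.

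CENPF, a large kinetochore protein of G2 and mitosis, was the single G2/M gene with a positive value. It was at 302, 272 and 239 CPM in Mock and at 349, 331 and 294 CPM in upCIN85, so that the lowest upCIN85 library lay under the highest Mock library (log2FC 0.26, SE 0.10, adjusted P = 0.242). The Aurora kinases AURKA (-0.18) and AURKB (-0.04), the survivin gene BIRC5 (-0.05) and the Polo kinase PLK1 (-0.10) lay closer to 0. So did TOP2A (-0.03), the topoisomerase that untangles sister chromatids.

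The S-phase genes showed no called change in upCIN85, and their median log2FC was -0.06. It became -0.139 when replicate 1 of upCIN85 was left out and -0.001 when replicate 3 was. The 6 MCM genes of the helicase had values from -0.15 (MCM7) to 0.12 (MCM3), and the nucleotide enzymes RRM1 (-0.06), RRM2 (-0.14) and TYMS (-0.04) were also near 0. The lowest was CCNE2, which encodes cyclin E2, the CDK2 partner at the G1/S boundary. It was at 25.6, 18.5 and 27.4 CPM in Mock and at 21.3, 13.7 and 13.6 CPM in upCIN85 (log2FC -0.55, 95% interval -1.05 to -0.06, SE 0.23, adjusted P = 0.278). The groups overlapped, and its counts of 39 to 156 a library were the lowest among the members described singly. E2F1 (-0.33) and UHRF1 (-0.24), which recruits maintenance DNA methylation to new strands, separated without overlap and did not pass. The highest was RFC4, a subunit of the clamp loader, at 79.4, 90.8 and 85.1 CPM in Mock and 98.3, 103 and 89.2 CPM in upCIN85 (log2FC 0.19, SE 0.13, adjusted P = 0.538), and these groups overlapped. The 3′ ends of RFC4 and CCNE2 overlap those of EIF4A2 and INTS8.

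**Figure D4:**
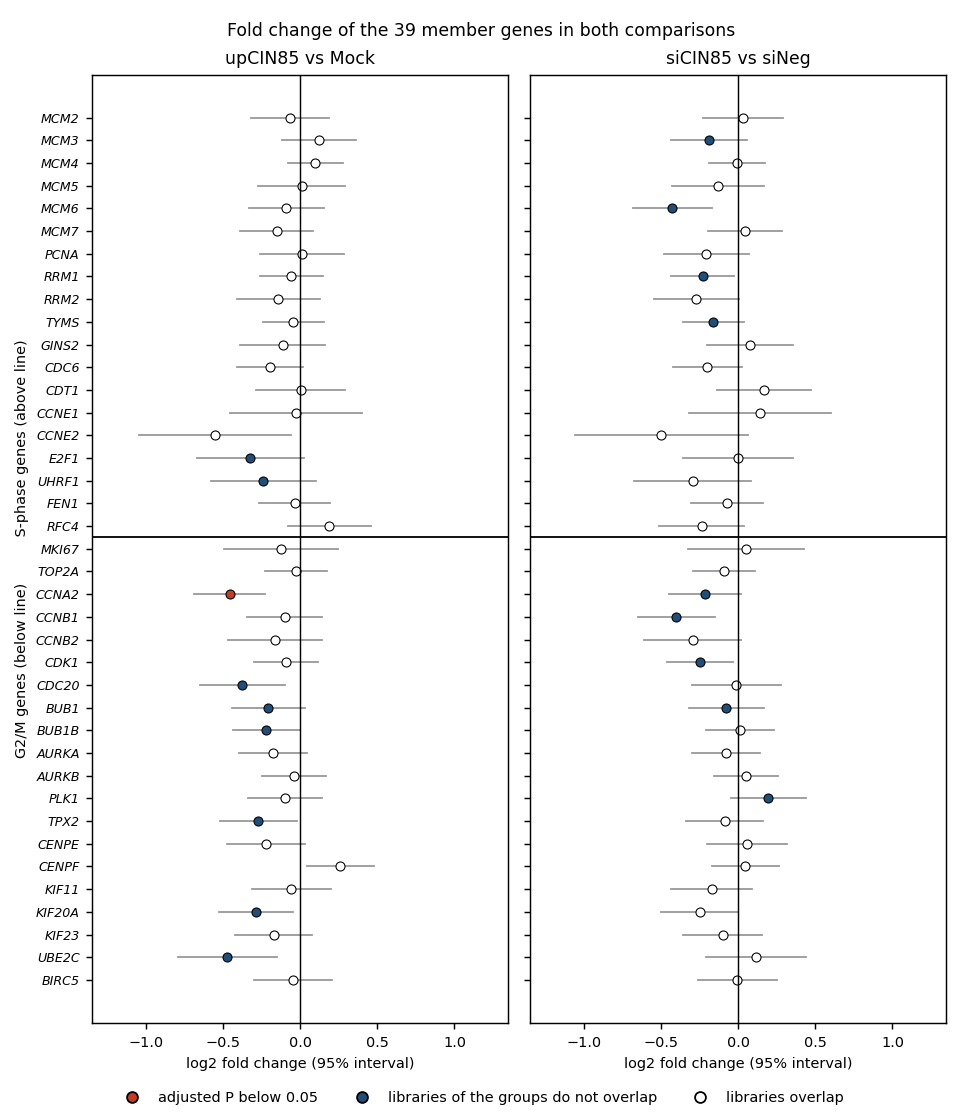
Log2FC with its 95% interval for the 39 members in upCIN85 versus Mock (left) and siCIN85 versus siNeg (right), with S-phase genes above the line and G2/M genes below it. A red point marks an adjusted P below 0.05 (CCNA2 on the left, whose libraries do not overlap either, and none on the right), a blue point libraries of the compared groups that do not overlap, and a white point libraries that overlap.

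In siCIN85 cells the members with the smallest P were MCM6, a subunit of the replicative helicase, and CCNB1, the cyclin that brings CDK1 into mitosis, with log2FC values of -0.43 and -0.40. No member passed the test without pairing of the replicates, in which 0.454% of all genes tested were called lower and 0.590% higher; at an unadjusted P below 0.05 there were 5 lower and 0 higher among the 39, beside 1022 lower and 947 higher of the 12542 genes tested. DESeq2 called 0 of 39 too. The median log2FC was -0.16 for S-phase genes and -0.08 for G2/M genes (-0.017 without siNeg replicate 1), beside 0.00 over all genes tested, and 14 of 19 and 13 of 20 members were negative. In 8 of the 39 members every siCIN85 library lay below every siNeg library, namely MCM6, MCM3, RRM1, TYMS, CCNA2, CCNB1, CDK1 and BUB1, and in 1 member, PLK1, every library lay above. All genes tested separated in this way in 10.2% of cases downward and 9.91% upward.

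Libraries of siNeg and siCIN85 that share a replicate number also shared deviations across all genes, so the fit with the replicate number as a block is given beside these results. With a block in the siRNA experiment alone, 1.89% of genes were called lower and 1.53% higher, and no member passed, with adjusted P = 0.0522 for MCM6 and 0.0679 for CCNB1. With a block in each experiment, 4.21% of genes were called lower and 3.51% higher, and MCM6 and CCNB1 were the members called, both lower, with adjusted P = 0.0144 and 0.0188. In the vector experiment 1 of the 3 same-numbered pairs fell short of the limit of 0.1 set for pairing (r = 0.099), and the last fit uses a block there too.

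MCM6 (chr2:135839626-135876426, minus strand) was at 102, 104 and 115 CPM in siNeg and at 70.9, 89.4 and 78.7 CPM in siCIN85 (log2FC -0.43, 95% interval -0.68 to -0.17, SE 0.12, adjusted P = 0.0964). No library of one group reached the other, and the Mock and upCIN85 libraries, at 115 to 126 and 99.0 to 129 CPM, also lay above all of siCIN85. The other helicase subunits did not share this size: MCM3 was at -0.19, MCM5 at -0.13, MCM4 at -0.01, MCM2 at 0.03 and MCM7 at 0.04, and GINS2, of the complex that joins the helicase, at 0.08. The nucleotide enzymes RRM2 (-0.27), RRM1 (-0.23) and TYMS (-0.16) were all negative, as were the fork genes UHRF1 (-0.30), RFC4 (-0.24), PCNA (-0.21) and FEN1 (-0.07), which trims Okazaki fragments. TYMS shares exon sequence with ENOSF1, and FEN1 with FADS2 and TMEM258.

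CCNB1 (chr5:69167010-69178245, plus strand) was at 318, 263 and 269 CPM in siNeg and at 205, 236 and 202 CPM in siCIN85 (log2FC -0.40, 95% interval -0.65 to -0.15, SE 0.12, adjusted P = 0.107). The groups did not overlap. The 4 genes of the mitotic cyclin group were all negative, with CCNB2 at -0.30, CDK1 at -0.25 and CCNA2 at -0.22. CCNA2 was at 418, 371 and 355 CPM in siNeg and at 307, 342 and 334 CPM in siCIN85, a separation without overlap (SE 0.11, adjusted P = 0.346). EXOSC9, at its 3′ end, had a log2FC of -0.35 (SE 0.15, adjusted P = 0.256).

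The remaining G2/M genes of siCIN85 lay on both sides of 0. The checkpoint and APC/C genes ran from -0.08 (BUB1) to 0.12 (UBE2C), and UBE2C varied widely within its groups, at 396, 297 and 248 CPM in siNeg and 344, 402 and 275 CPM in siCIN85. PLK1, which drives mitotic entry and spindle assembly, had the highest G2/M value. It was at 173, 155 and 149 CPM in siNeg and at 189, 182 and 175 CPM in siCIN85 (log2FC 0.20, SE 0.12, adjusted P = 0.428). CENPF was at 307, 295 and 320 CPM in siNeg and at 305, 304 and 343 CPM in siCIN85, with a log2FC of 0.05. KIF20A (-0.25) and KIF11 (-0.17) were the lowest of the spindle genes.

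At the G1/S boundary CCNE2 again had the lowest S-phase value, at 21.0, 12.2 and 19.5 CPM in siNeg and 9.46, 16.2 and 11.9 CPM in siCIN85 (log2FC -0.50, 95% interval -1.06 to 0.06, SE 0.26, adjusted P = 0.373), with groups that overlapped. CCNE1 was at 0.14 and E2F1 at 0.00. CDT1, the licensing factor that loads the helicase, had the highest S-phase value: 34.7, 31.8 and 42.2 CPM in siNeg and 42.5, 37.9 and 41.5 CPM in siCIN85 (log2FC 0.17, SE 0.14, adjusted P = 0.609), again overlapping. Its partner CDC6 was at -0.20.

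The usual markers of proliferating cells had no difference larger than their spread in either comparison. MKI67, which encodes the Ki-67 antigen, was at 227, 173 and 145 CPM in Mock, 187, 191 and 120 CPM in upCIN85, 202, 163 and 183 CPM in siNeg, and 210, 157 and 199 CPM in siCIN85. The groups overlapped throughout. Its log2FC was -0.13 (95% interval -0.50 to 0.24, adjusted P = 0.798) in upCIN85 and 0.05 (-0.33 to 0.43, adjusted P = 0.923) in siCIN85. PCNA was at 485, 437 and 520 CPM in Mock, 578, 400 and 475 CPM in upCIN85, 426, 394 and 417 CPM in siNeg, and 312, 419 and 340 CPM in siCIN85. Its log2FC was 0.01 (-0.26 to 0.28, adjusted P = 0.981) in upCIN85 and -0.21 (-0.48 to 0.07, adjusted P = 0.455) in siCIN85. CDT1 in the vector cells was as close, at 43.6, 35.8 and 43.7 CPM in Mock and 45.1, 41.3 and 36.7 CPM in upCIN85 (log2FC 0.00).

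**Figure D5:**
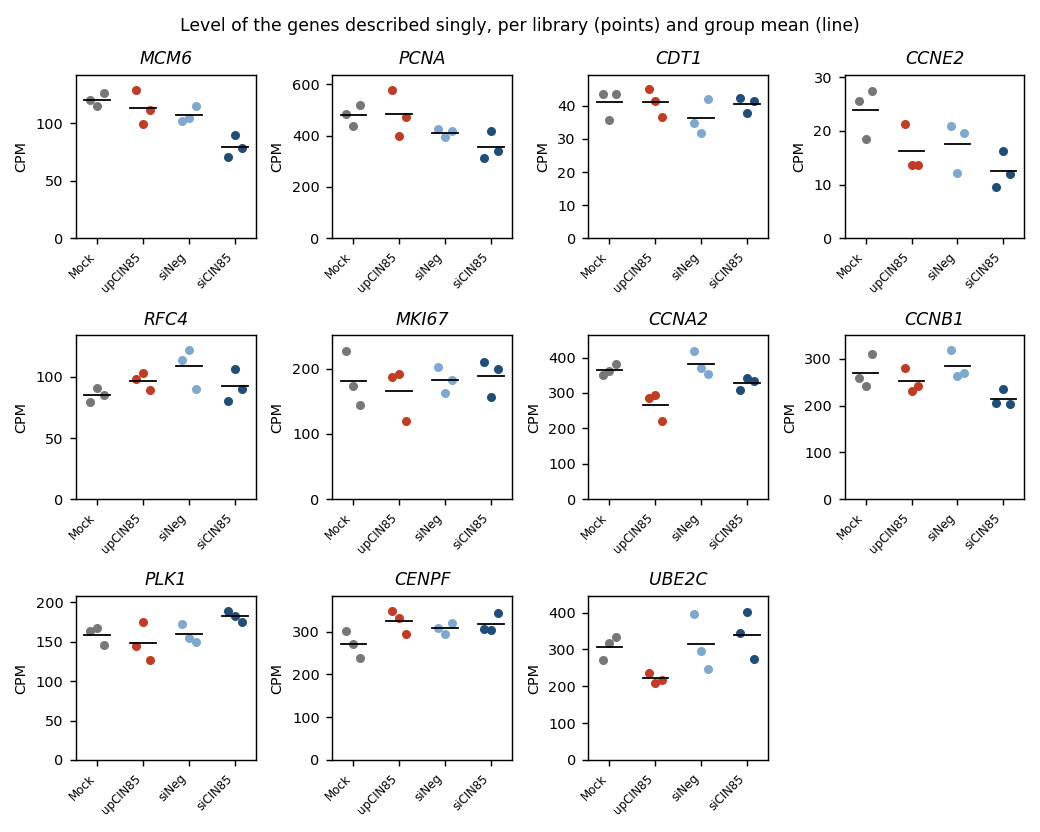
CPM of the 11 members described singly, on a linear axis from 0, with a point for each library and a line for the group mean (n = 3). CCNA2 and UBE2C are lower in the upCIN85 libraries than in every Mock library, and MCM6 and CCNB1 are lower in the siCIN85 libraries than in every siNeg library, while MKI67 and PCNA overlap in both comparisons.

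The intervals set how large a change these libraries could have hidden. The standard errors of the members had a median of 0.12 on the log2 scale in both comparisons, with 0.09 to 0.23 in upCIN85 versus Mock and 0.09 to 0.26 in siCIN85 versus siNeg. The 95% intervals lay within a 2-fold change in either direction for 38 of 39 members in each comparison. The exception in both was CCNE2, with 39 to 156 counts a library. CCNE1, with 46 to 110 counts a library, lay within these limits. No member had a log2FC past a 1.5-fold change in either comparison.

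The control groups were also compared with each other. The siNeg cells received an siRNA and the Mock cells an empty vector, and the parts of these steps cannot be told apart. No member passed the test in this comparison (adjusted P of 0.257 or more; 0.112% of all genes tested were called lower and 0.415% higher; at an unadjusted P below 0.05, 4 members were lower and 1 higher, beside 711 and 849 of the 12542 genes tested; DESeq2 called 0). The median log2FC was -0.14 for S-phase genes, with 15 of 19 negative, and 0.01 for G2/M genes, beside 0.00 over all genes tested. UHRF1 (-0.44), CDC6 (-0.28), TYMS (-0.23), PCNA (-0.22), CDC20 (-0.28) and BUB1 (-0.06) separated downward without overlap and AURKB (0.16) upward, against 9.94% and 9.48% of all genes tested. CCNE2 was at -0.44 and RFC4 at 0.35, with overlapping libraries. The summed S-phase level of siNeg differed from that of Mock by -7.42%, and those sums did not overlap.

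Whether the effects of raising and lowering CIN85 differed was tested as a contrast of the same fit. No member passed (0.686% of all genes tested were called with a lower and 0.287% with a higher effect in upCIN85; 1 member on each side had an unadjusted P below 0.05, beside 948 lower and 870 higher of the 12542 genes tested, and DESeq2 called 0). UBE2C had the largest difference, -0.59 (95% interval -1.05 to -0.13, adjusted P = 0.214), from -0.47 in upCIN85 and 0.12 in siCIN85. Its adjusted P was 0.0523 with a replicate block in the siRNA experiment and 0.0192 with a block in each experiment. Of the 12542 genes tested those fits called 368 and 918 in turn. The corresponding differences were 0.42 for RFC4 (adjusted P = 0.294), 0.34 for MCM6 (adjusted P = 0.369), 0.30 for CCNB1 (adjusted P = 0.433) and -0.24 for CCNA2 (adjusted P = 0.516). The median difference was 0.06 for S-phase genes and -0.09 for G2/M genes, beside 0.01 over all genes tested.

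Other genes of the same programmes gave few calls in edgeR without a replicate block, and each of the 4 was lost when certain single libraries were left out. That fit called 0.789% of all genes tested lower and 0.439% higher in upCIN85, and 0.454% lower and 0.590% higher in siCIN85. HMMR passed only without Mock replicate 1 or upCIN85 replicate 2, DUT only without siNeg replicate 3 or siCIN85 replicate 2, ANLN not without siNeg replicates 1 or 3 or siCIN85 replicate 1, and E2F7 only without siCIN85 replicate 2, with adjusted P of up to 0.182, 0.138, 0.155 and 0.219 in turn. Calls over all genes moved too. In upCIN85 they went from 154 to 260 without upCIN85 replicate 2 and to between 25 and 89 without another library. In siCIN85 they went from 131 to 189 without siNeg replicate 3 and to 362 without siCIN85 replicate 2. Without another library they were 9 to 17. Of 65 further G2/M genes, 1 fell in upCIN85 and none rose. This was HMMR, a spindle and hyaluronan binding protein, at 76.6, 103 and 113 CPM in Mock and 53.5, 70.9 and 48.6 CPM in upCIN85 (log2FC -0.76, SE 0.16, adjusted P = 0.0322), and in siCIN85 its log2FC was 0.11 (adjusted P = 0.796). The median of these 65 genes was -0.12 in upCIN85, with 50 negative, and -0.16 in siCIN85, with 53 negative. At an unadjusted P below 0.05, 11 of the 65 were lower and 0 higher in upCIN85. The 12542 genes tested gave 984 lower and 833 higher there. In siCIN85 13 were lower and 2 higher, beside 1022 and 947. DESeq2 called 2 of the 65 in upCIN85 and 4 in siCIN85, all lower. Among all genes tested it called 210 lower and 111 higher in upCIN85, and 154 lower and 137 higher in siCIN85. In edgeR, 1 of the 65 fell in siCIN85 and none rose. It was ANLN, the actin-binding scaffold of the cleavage furrow, at 213, 184 and 260 CPM in siNeg and 119, 139 and 161 CPM in siCIN85 (log2FC -0.65, SE 0.13, adjusted P = 0.0253). In upCIN85 ANLN was at -0.17 (adjusted P = 0.570).

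Of 52 further S-phase genes 2 were lower and 1 higher in upCIN85 at an unadjusted P below 0.05. In siCIN85 5 were lower and 1 higher, beside the counts over all genes given above. DESeq2 called 0 of the 52 in upCIN85 and 2, both lower, in siCIN85. In edgeR none passed in upCIN85 and 1 fell in siCIN85. This was DUT, the dUTPase that keeps uracil out of DNA, at 404, 389 and 345 CPM in siNeg and 238, 285 and 262 CPM in siCIN85 (log2FC -0.54, SE 0.10, adjusted P = 0.0251). In upCIN85 the log2FC of DUT was 0.00 (95% interval -0.21 to 0.21). The medians of these 52 genes were 0.04 in upCIN85 and -0.06 in siCIN85.

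Of 18 regulators from the RB, E2F, DREAM and FOXM1 list, 3 were lower and 1 higher in upCIN85 at an unadjusted P below 0.05. In siCIN85 1 was lower and 2 higher, beside the counts over all genes given above. DESeq2 called 0 of the 18 in upCIN85, and 1 lower and 1 higher in siCIN85. In edgeR none passed in upCIN85 and 1 rose in siCIN85. It was E2F7, an atypical E2F that represses E2F target genes, at 42.7, 32.5 and 33.9 CPM in siNeg and 66.7, 49.2 and 57.3 CPM in siCIN85 (log2FC 0.67, SE 0.15, adjusted P = 0.0444). The siNeg libraries lay below the Mock libraries, at 44.9 to 55.1 CPM (log2FC of siNeg versus Mock -0.44, adjusted P = 0.234). In the fit without pairing, edgeR called none of the 135 genes of these 3 lists in siNeg versus Mock or in the difference between the effects. At an unadjusted P below 0.05 there were 18 of the 135 in each, beside 1560 and 1818 of the 12542 genes tested in turn. In the test of the difference between the effects 4 genes had an adjusted P below 0.05 in DESeq2 and not in edgeR. They are named here after their values were seen. They were HMMR (-0.87, adjusted P = 0.0807 in edgeR and 0.0316 in DESeq2), E2F7 (-0.81, 0.0770 and 0.0341), DUT (0.54, 0.0812 and 0.0359) and GMNN, the geminin gene that restrains CDT1 (0.89, 0.0790 and 0.0276). With a replicate block in the siRNA experiment edgeR called the same 4 genes in this test, with adjusted P of 0.0385, 0.0235, 0.0476 and 0.00880 in that order. Among all genes tested DESeq2 called 278 in this test and the fit with that block 368. With a block in each experiment edgeR called 3 of the 65, 5 of the 52 and 1 of the 18, beside 918 of all genes tested. In siCIN85 versus siNeg, a replicate block in the siRNA experiment gave calls for 5 of the 65 G2/M genes and 2 of the 52 S-phase genes, all lower. Of the 18 regulators 1 was called lower and 1 higher. Among all genes tested 1.89% were called lower and 1.53% higher. With a block in each experiment 11 of the 65 were called lower and 2 higher, and 4 of the 52 lower and 0 higher. Of the 18 again 1 was lower and 1 higher, beside 4.21% lower and 3.51% higher of all genes tested.

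Counts of some members may include reads of a neighbour. An exon of 14 members overlaps an exon of another gene in GENCODE release 29, and for 8 of them that gene had more than 5% of the member's counts: MCM2, TYMS, GINS2, CCNE2, FEN1, RFC4, CCNA2 and KIF20A. Pseudogenes named after members numbered 19, for 10 members, and none had more than 1 count over the 12 libraries.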

How the data were processed

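RNA of HOS cells was made into 3′ QuantSeq libraries, 12 in all, with a UMI module, and these were read single-end on an Illumina sequencer. The submitters' notes name cutadapt 4.3, STAR 2.7.3a, Picard 2.25.6 and featureCounts of Subread 2.0 on GRCh38; the annotation release, strand setting and use of the UMIs are not given in the sources used here. The authors deposited raw read counts per gene, 1 table for the 12 libraries, and no other file was used.

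Genes were filtered with filterByExpr (minimum count 10, minimum total 15; 12542 of 25141 rows kept), scaled with TMM and tested with edgeR 4.0.16 (quasi-likelihood, all 12 libraries, 8 residual degrees of freedom, R 4.3.3) with Benjamini-Hochberg adjustment over all genes tested and a threshold of 0.05. P-values are two-sided, and intervals are 95%. CPM were computed here from the counts and the TMM factors. Gene names and positions came from GENCODE v29, in which 95 rows had no match. The scripts were tested on simulated data. The labels do not state that replicates were separate cultures, so P-values measure the spread between these libraries, which may be technical. No 2 libraries of a group agreed within sampling noise.

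Same-numbered siNeg and siCIN85 libraries, whose numbers come from the labels, had correlated deviations from their group means (r = 0.353, 0.269 and 0.446 over all genes tested). The main fit has no replicate block. Values for siCIN85 versus siNeg come from it except where a block or DESeq2 is named, and fits with a block are given beside it. Genes given with values in every library were those called in a comparison or, for siCIN85 versus siNeg, in a fit with a replicate block, then MKI67, PCNA, MCM6, CCNA2, and the highest and lowest of each set in both comparisons. From other lists, called genes are named. The members, lists and rules were chosen with earlier results of these data known. Alternatives were a fit of the 6 libraries compared, RLE scaling, no TMM, other count filters, replicate blocks, DESeq2 1.42.0, thinning to the smallest total (3540641) and leaving out each library. Of the lists, LIN37, SP7, BGLAP, KRT14 and KRT5 had no row.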

Additional observations from a re-analysis of the deposited data

How the results depend on the processing

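CCNA2 was the single member called in upCIN85 versus Mock, and its adjusted P became 0.0502 with RLE scaling, 0.0548 without TMM factors, 0.0555 with at least 10 counts in every library and 0.0770 after thinning, with 0 members called in each. With only the 6 libraries of the comparison it was 0.0543, and UBE2C was called in its place (adjusted P = 0.0353), beside 168 of 12299 genes called lower. Without a filter and with DESeq2 on 6 libraries 2 members were called lower, CCNA2 and UBE2C. Among all genes tested 356 of 25141 and 218 of 12299 were called lower in turn. Leaving out a library gave 0 to 1 members called lower in upCIN85 versus Mock, beside 18 to 151 of all genes tested. In siCIN85 versus siNeg it also gave 0 to 1, beside 4 to 198 of all genes tested. There the 1 was MCM6 without siCIN85 replicate 2 (adjusted P = 0.0427), where 198 of 13106 genes were called lower. Without a filter 2 members, MCM6 and CCNB1, were called lower in siCIN85 versus siNeg, beside 377 of 25141 genes. In that fit 1 member, UBE2C, had a lower effect in upCIN85 than in siCIN85, beside 291 of 25141 genes. The cause of these moves was not tested.

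The replicate numbers of upCIN85 and Mock were not treated as paired in the main fit (r = 0.326, 0.227 and 0.099). The lowest of these lay just under the limit of 0.1. Every library of these groups correlated best with its own number, so whether they pair is undecided. Nor were those of siNeg and Mock treated as paired (r = 0.075, 0.18 and -0.06). A replicate block in each experiment gave 4 members lower in upCIN85 versus Mock (CCNA2, UBE2C, CDC20 and TPX2) and 1 higher (CENPF, log2FC 0.26, adjusted P = 0.0429), 2 lower in siCIN85 versus siNeg, and 1 lower in the difference of effects (UBE2C, adjusted P = 0.0192). The genes called among all tested rose with it from 154 to 1035 in upCIN85 versus Mock and from 131 to 968 in siCIN85 versus siNeg, and to 429 with a block in the siRNA experiment alone. In the difference of effects they rose from 122 to 918 with a block in each experiment.

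The median log2FC of each set kept its sign under the alternatives run, except that of the G2/M genes in siNeg versus Mock (0.01), which was -0.027 without TMM factors, -0.022 without a filter and between -0.068 and 0.08 without single libraries. Leaving out a library moved it between -0.221 and -0.083 for S-phase genes in siNeg versus Mock, between 0.019 and 0.159 for S-phase genes and between -0.187 and -0.013 for G2/M genes in the difference of effects. Among the 11 members given in every library, signs turned for some that did not pass. In upCIN85 versus Mock these were PCNA (-0.002 with the replicate block, -0.016 after thinning, -0.139 to 0.131 without single libraries), CDT1 (-0.007 without a filter, 0 in DESeq2 on 6 libraries, -0.094 to 0.071), CCNB1 (-0.192 to 0.011), MKI67 (-0.265 to 0.065) and PLK1 (-0.231 to 0.001). In siCIN85 versus siNeg they were MKI67 (-0.038 to 0.153), CENPF (-0.024 to 0.072) and UBE2C (-0.034 to 0.317). Totals of 3540641 to 6049458 counts and 3 libraries a group limit what could be called. CCNE2 had the largest standard error of the members in upCIN85 versus Mock and in siCIN85 versus siNeg.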
